A study of Mus musculus with 6 samples.

Results

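The 57 genes described here are developmental regulators of families defined by the homeobox, the stretch that encodes the DNA-binding homeodomain, and by the related paired box of the PAX genes. They lie outside the Hox clusters. Some PAX proteins carry only part of a homeodomain or none, Pax9 among them. They were chosen by name from the PAX, LIM, NKX, sine oculis-related (Six4 and its paralogues), DLX, MSX, IRX, MEIS, EN, GBX, EMX, OTX, PITX, BARHL, GSX, EVX, TLX and ALX families. All 57 were found in a table of 20633 transcript entries covering 19338 named genes. Nuclear RNA had been sequenced from mouse embryonic stem (ES) cells of the genotype RYBPfl/fl;YAF2-/-, in 3 libraries from untreated cells (UNT) and 3 libraries from cells given 4-hydroxytamoxifen (OHT) at 800 nM for 96 hours. Both groups lacked Yaf2 and carried floxed Rybp together with a tamoxifen-inducible Cre, so the untreated cells were already mutant for one of the 2 paralogues. Yaf2 had been deleted with CRISPR-Cas9, which removed its first exons, in cells grown from single colonies.

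The level given for each gene is the base mean, the authors' mean over all 6 libraries of reads normalized for sequencing depth. It pools UNT and OHT cells, so no level below belongs to either group, and UNT and OHT were not compared here. Levels of different genes are given as base mean and, for many genes, also per kilobase (kb) of gene span. The scale per kb is given because nuclear RNA holds intronic as well as exonic sequence and the authors mapped reads with introns in view. Counts past fixed levels and shares by promoter window use the base mean, with no correction for length. A gene span can be longer than the transcript entry kept for that gene, which lowers its level per kb.

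Homeodomain proteins of these families set up regional and cell identities in the embryo, from eye, brain and spinal cord to heart, kidney, limb and skull. In ES cells many of their promoters are CpG islands bound by the Polycomb repressive complexes PRC1 and PRC2. PRC1 places ubiquitin on histone H2A and PRC2 methylates histone H3, and genes marked in this way are usually kept silent until differentiation. RYBP and YAF2 are alternative subunits of variant forms of PRC1.

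The sequences below show the DNA just upstream of a start annotated in RefSeq for the members with the highest and the lowest levels per kb, and for the neighbouring pair Six3 and Six2. They come from RefSeq, build GRCm38.p6, run 5′ to 3′ on the strand of the gene, and have each CG dinucleotide in capitals. Gbx2 and Six4 were among the 3 highest members per kb, En2 being the other. Lhx4, Nkx2-1 and Evx2 were the 3 lowest. The start used for Nkx2-1 lies 1802 bases from the GENCODE start of its kept transcript, and that for Evx2 138 bases. Several of these starts are not the outermost one of their gene. The stretch lies inside the gene span used for levels per kb by 456 bases for Six4, 1813 for Evx2, 7076 for Six3 and 9549 for Lhx4.
Gbx2, chr1:89931180-89931326, minus strand: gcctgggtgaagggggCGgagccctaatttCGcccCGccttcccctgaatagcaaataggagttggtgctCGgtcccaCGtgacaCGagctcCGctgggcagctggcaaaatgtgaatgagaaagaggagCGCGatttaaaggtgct
Six4, chr12:73113457-73113575, minus strand: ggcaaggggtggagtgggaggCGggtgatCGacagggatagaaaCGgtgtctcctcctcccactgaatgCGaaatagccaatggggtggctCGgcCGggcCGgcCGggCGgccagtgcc
Lhx4, chr1:155742028-155742177, minus strand: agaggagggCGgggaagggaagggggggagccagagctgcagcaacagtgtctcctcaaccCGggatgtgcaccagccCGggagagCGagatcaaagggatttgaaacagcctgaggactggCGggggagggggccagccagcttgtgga
Nkx2-1, chr12:56536909-56537058, minus strand: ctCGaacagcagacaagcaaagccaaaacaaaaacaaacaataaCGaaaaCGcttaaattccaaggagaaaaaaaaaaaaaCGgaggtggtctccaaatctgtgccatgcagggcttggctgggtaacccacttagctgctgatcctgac
Evx2, chr2:74659558-74659707, minus strand: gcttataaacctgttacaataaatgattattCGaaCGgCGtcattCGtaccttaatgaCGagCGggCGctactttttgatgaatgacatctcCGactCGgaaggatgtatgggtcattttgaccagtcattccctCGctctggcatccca
Six3, chr17:85620684-85620833, plus strand: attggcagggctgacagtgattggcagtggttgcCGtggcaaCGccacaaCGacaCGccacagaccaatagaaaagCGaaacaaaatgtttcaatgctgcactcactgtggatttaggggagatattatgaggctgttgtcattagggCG
Six2, chr17:85688275-85688404, minus strand: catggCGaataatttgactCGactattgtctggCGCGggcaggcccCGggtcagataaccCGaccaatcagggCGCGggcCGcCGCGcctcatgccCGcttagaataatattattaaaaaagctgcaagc
The stretches held 9 CG dinucleotides for Gbx2, 9 for Six4, 5 for Lhx4, 4 for Nkx2-1, 10 for Evx2, 6 for Six3 and 12 for Six2.

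Most of the homeobox genes had nuclear RNA levels below the median gene. Their median base mean was 8.69, with quartiles of 2.99 and 22.1, against a median of 227.4 over all genes. Of the 57 members, 53 (93.0%) lay below the median of all entries, 236.4. Per kb of gene span, 52 members lay below the median of all genes, 10.1, and the members' own median was 0.895. Base means of at least 10 were reached by 25 members (43.9%) and by 75.0% of all genes. Base means of at least 100 were reached by 7 members (12.3%) and by 58.6% of all genes. Base means below 1 were found for 7 members (12.3%), a share near the 13.4% of all genes, and 2 of these, Nkx2-1 and Evx2, were at 0. The plot of levels by family shows base means from 1.76 to 213 among the PAX genes, from 0.741 to 88.4 among the LHX genes and from 0.502 to 54.1 among the DLX genes.

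**Figure D1:**
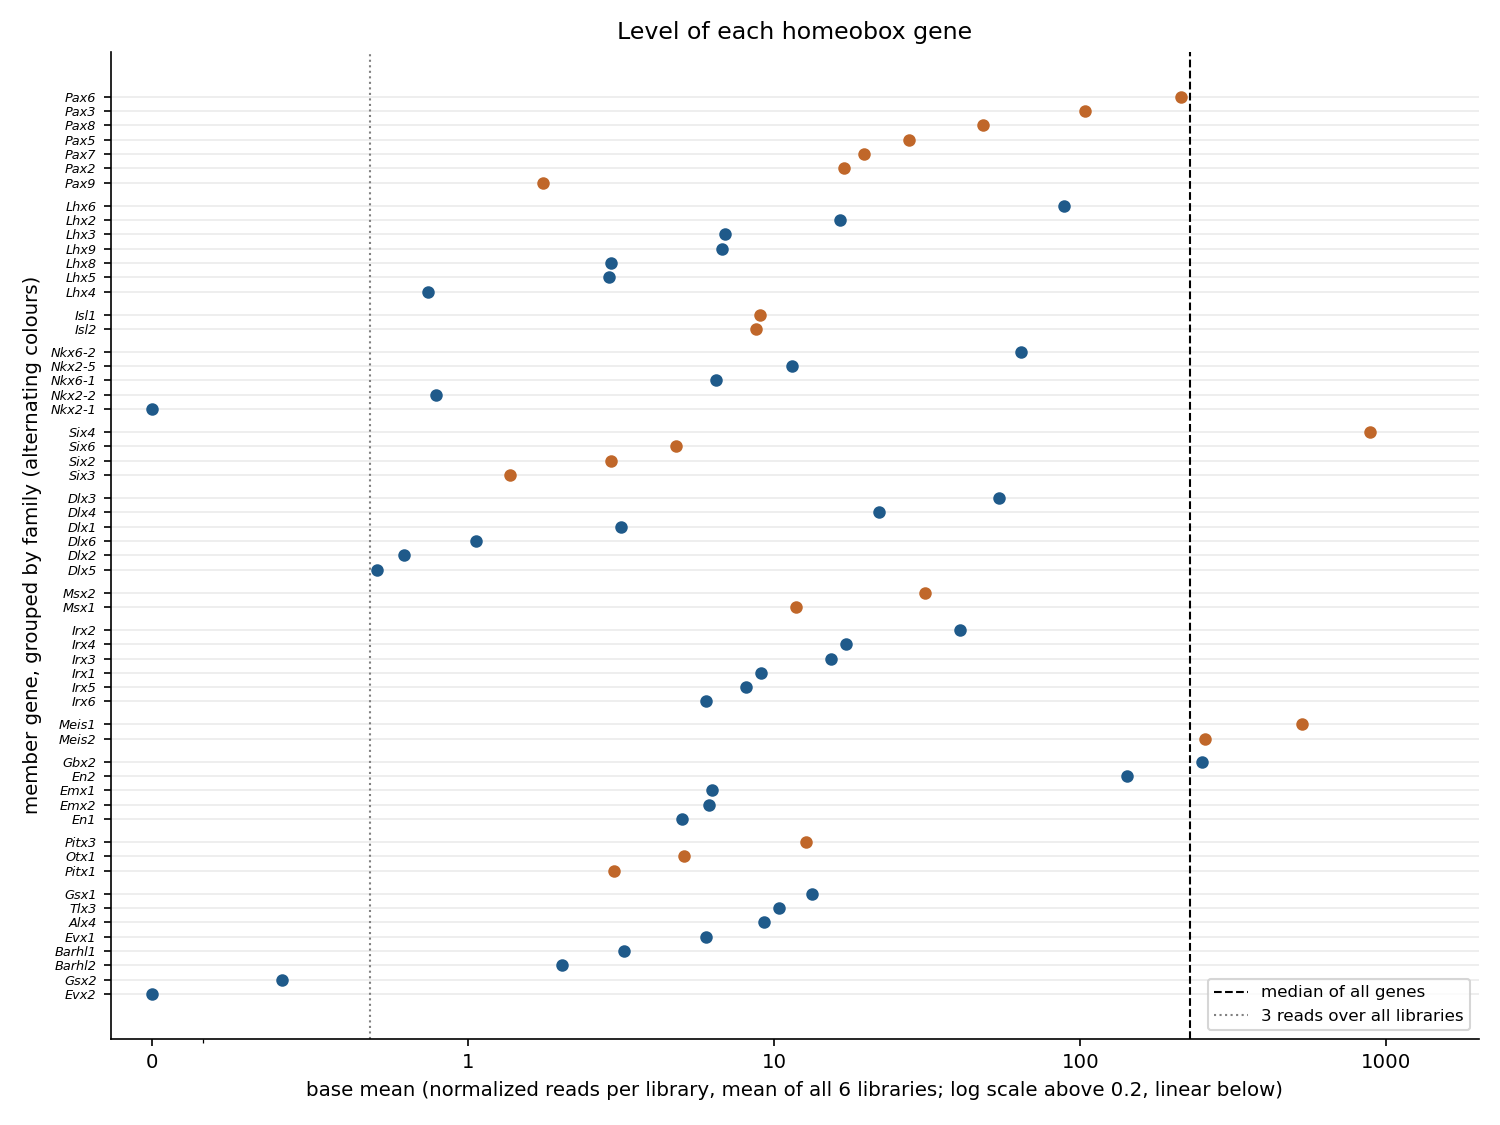
Base mean of each of the 57 homeobox genes (points, 1 per gene, alternating colours for families), on a log axis that is linear below 0.2. The median of all genes is dashed (227.4), and the base mean at which 3 reads over all libraries would be expected is dotted (0.480). Only Six4, Meis1, Meis2 and Gbx2 lie to the right of the median of all genes, and Nkx2-1 and Evx2 lie at 0.

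Markers of ES cells were high. All 9 pluripotency markers found in the table had base means of at least 1565, among them Pou5f1 at 3039, Nanog at 2930 and Sox2 at 4013. The medians of markers of neural progenitors (102), trophoblast (52.8), primitive endoderm (131) and mesoderm or fibroblasts (43.6) were below that of all genes in base mean. Per kb of span these medians were 10.5, 9.45, 3.31 and 2.79, so that of the neural markers was slightly above the 10.1 of all genes. In base mean, Nes, at 768, Tfap2c, at 1131, Dab2, at 461, Col1a1, at 369, and Gata4, at 269, were the markers in these lists above the median of all genes. Pax6, a member, is also in the neural list. The part of such cells in the members' levels was not tested. Rybp, which OHT was used to delete, had a pooled base mean of 13983. Yaf2 had a base mean of 3.24, from 2, 8, 0, 6, 1 and 3 reads in libraries A to F as defined below. The 6 libraries differed 2.23-fold in relative depth.

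4 members stood above the median of all genes in base mean, and they belong to 3 families. Six4, which acts in muscle and kidney development, had the highest base mean, 884, at the 70.6th percentile of all entries. By RefSeq spans Six4 partly overlaps the higher gene Mnat1, but in the GENCODE annotation it overlaps no other gene. Meis1, a TALE homeodomain cofactor of Hox proteins, followed at 529, and Meis2, its close paralogue, at 255. Gbx2, which positions the boundary between midbrain and hindbrain and is also a target of LIF signalling in ES cells, had a base mean of 250. Next came Pax6, the eye and neural regulator, at 213, En2, of the midbrain and hindbrain, at 142, and Pax3, of the dorsal neural tube and neural crest, at 103. Six4, Meis1 and Meis2 together held 55.1% of the summed base mean of all members. For these genes reads per library could not be recovered, so their spread between libraries is not known here.

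Gene length changed the order. Gbx2 spans only 3215 bases (chromosome 1, 89927962 to 89931176) and had the highest level per kb of span, 77.9, at the 84.7th percentile of all genes. Six4 (chromosome 12, 73099609 to 73114031) followed at 61.3 per kb, En2 (chromosome 5, 28165696 to 28172190) at 21.9 and Nkx6-2, of the ventral neural tube and oligodendrocytes, at 18.7. Dlx3, needed for placenta and epidermis, was the other member above the median of all genes, at 10.4 per kb. On this scale the Meis genes stood 11th and 20th of the 57 members. Meis1 spans 139224 bases and had 3.80 per kb, and Meis2 spans 206274 bases and had 1.24 per kb. Per kb of exon the order differed again, with Meis1 at 166, Six4 at 138, Gbx2 at 117, Pax6 at 82.0, Meis2 at 69.0 and En2 at 40.2. Whether reads in introns entered the counts is not given in the sources used here, so both scales are shown.

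Among the PAX genes, 6 of 7 had a base mean of at least 10. After Pax6 and Pax3 came Pax8, of thyroid and kidney, at 48.0, Pax5, the B cell regulator, at 27.5, Pax7, of muscle satellite cells, at 19.7, and Pax2, of kidney and optic nerve, at 16.9. Pax9, of the pharyngeal pouches and teeth, had a base mean of 1.76, from 10 reads in 4 libraries. Per kb of span, Pax6 had 7.22, Pax3 1.08 and Pax8 0.873, and Pax5, Pax7 and Pax2, with 0.148, 0.204 and 0.185, were lower. The family median per kb was 0.204, at the 18.8th percentile of all genes. Pax6 had 2 entries in the table, with base means of 213 and 201, and only the higher was kept. Lhx2 also had 2 entries, at 16.4 and 16.0, and Lhx9 had 2, at 6.74 and 4.05, so the level of Lhx9 depends on the entry kept.

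Of the 7 LHX genes, 2 reached a base mean of 10, and neither of the 2 ISL genes did. Lhx6, of cortical interneurons, had a base mean of 88.4 and Lhx2, of eye and forebrain, 16.4, while the other 5 LHX genes were below 10. Lhx3 and Lhx4, paralogues that act in pituitary and motor neurons, had base means of 6.91 and 0.741. Lhx9, of the gonad, stood at 6.74, Lhx8, of cholinergic neurons, at 2.93 and Lhx5, of the hippocampus, at 2.88. Isl1, of motor neurons and heart progenitors, and Isl2, of motor neurons, had base means of 9.001 and 8.69. Per kb of span, Lhx6 had 3.68 and the other LHX genes from 0.0138 to 0.860.

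Base means below 2 were found in the NKX genes, among the paralogues of Six4 and in the DLX genes. Pax9, Lhx4, Gsx2 and Evx2, of other families, were also below 2. Nkx6-2 had a base mean of 64.0, Nkx2-5, the heart regulator, 11.4, Nkx6-1, of beta cells, 6.44 and Nkx2-2, of pancreas and ventral neural tube, 0.787, while Nkx2-1, of thyroid, lung and ventral forebrain, was at 0. The entry for Nkx6-2 is a non-coding transcript of that locus in RefSeq. Six6, Six2 and Six3, regulators of eye, nephron progenitors and forebrain, stood at 4.77, 2.92 and 1.37. Dlx3 and Dlx4 had base means of 54.1 and 22.1. The other 4 DLX genes, which pattern forebrain interneurons and the jaw, had base means of 3.16 for Dlx1, 1.06 for Dlx6, 0.617 for Dlx2 and 0.502 for Dlx5.

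The IRX genes, which pattern heart and neural tissue, had base means from 5.97 to 40.4. Irx2 had a base mean of 40.4, Irx4, of the cardiac ventricle, 17.2, Irx3 15.3, Irx1 9.04, Irx5 8.07 and Irx6 5.97. Per kb of span, they ran from 0.895 for Irx6 to 4.87 for Irx3. Msx2 and Msx1, of limb and skull, had base means of 31.1 and 11.8. En1, the paralogue of En2, was at 4.98, and the cortical regulators Emx1 and Emx2 were at 6.28 and 6.13. Otx1, of the brain, stood at 5.06, Pitx1, of the hindlimb, at 2.99 and Pitx3, of lens and dopaminergic neurons, at 12.7. In the last group Gsx1, of the ventral forebrain, reached 13.3 and Tlx3, of spinal sensory neurons, 10.4. Alx4, of limb and skull, stood at 9.28, Evx1, of spinal interneurons, at 5.97, and the sensory regulators Barhl1 and Barhl2 at 3.24 and 2.03. Gsx2, the paralogue of Gsx1, was at 0.247.

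Some paralogues lie side by side in the genome. Dlx3 and Dlx4, 15150 bases apart on chromosome 11, had 10.4 and 3.77 per kb of span. Dlx1 and Dlx2, 9426 bases apart on chromosome 2, had 0.538 and 0.184 per kb. Dlx6 and Dlx5, 9830 bases apart on chromosome 6, had 0.229 and 0.118 per kb. Six3 and Six2, 36544 bases apart on chromosome 17, had 0.109 and 0.114 per kb. The Six3 span begins 7076 bases before the stretch printed above, which ends at the start of its kept transcript. The Six3 level per kb may therefore be understated. Six2 spans 25519 bases, with 2119 bases of exon, so its level also depends on the span used. Per kb of exon, Six3 had 0.372 and Six2 had 1.38. Six6 and Six4, 154709 bases apart on chromosome 12, had 0.951 and 61.3 per kb, the widest gap of these pairs. The ranges of normalized reads over the libraries overlapped within each of the 3 pairs with recovered reads. They were 1.18 to 6.03 for Dlx1 and 0 to 2.35 for Dlx2, 0 to 3.05 for Dlx6 and 0 to 3.01 for Dlx5, and 0 to 4.70 for Six3 and 0 to 8.59 for Six2. For Dlx3, Dlx4 and Six4 the spread is not known, so no difference within their pairs was tested.

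For members with a base mean below 10, whole reads in each library could be recovered, because each low base mean is a sum of whole reads weighted by 6 fixed steps. The libraries are named A to F from the deepest to the shallowest, and which of them are UNT and which OHT is unknown. Of the 30 members above 0 in this range, 9 had reads in every library and 21 had no read in at least 1 library. Isl1 had 14, 10, 8, 12, 6 and 6 reads in libraries A to F, and Irx1 had 15, 8, 8, 8, 8 and 8. Both were thus read in every library. For other genes 1 or 2 libraries stood out in raw reads, which are not corrected for the 2.23-fold difference in depth. Irx6 had 27 reads in library A and 2, 4, 4, 4 and 2 in the others, and Otx1 had 14 reads in library E and 4, 4, 6, 2 and 0 in libraries A, B, C, D and F. Lhx3 had 15 reads in library C and 5, 4, 4, 3 and 8 in libraries A, B, D, E and F. Normalized for depth, Lhx3 had 15.2 in library C and 12.1 in library F. Alx4 had 24 and 18 reads in libraries A and B, and 2, 8, 8 and 4 in libraries C to F.

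At the low end levels rested on a few reads. Dlx2 had 2 reads in library A and 2 in library E, Dlx5 had 2 reads in library F and Gsx2 had 2 reads in library B. Lhx4 had 5 reads in all, over 3 libraries, and Nkx2-2 had 5 reads, also over 3 libraries. Nkx2-1 and Evx2 had no read in any library, which allows a base mean of up to 0.480, the level at which 3 reads over all libraries would be expected. This limit covers counting error only and takes each read as 1 count. As 79.3% of library counts above 0 were even, mates of a pair may have been counted separately, and the limit for 3 pairs would be 0.959. In the order of the 32 members with known reads, all 31 neighbouring pairs had overlapping ranges of normalized reads over the libraries. Neighbours in rank with so few reads overlap almost by construction, so this is no test of the order. The order of neighbours is not resolved here. Summed over these 32 members, normalized reads were 143, 79.4, 119, 134, 160 and 148 in libraries A to F. Library B was the lowest, and the other 5 lay within 119 to 160.

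**Figure D2:**
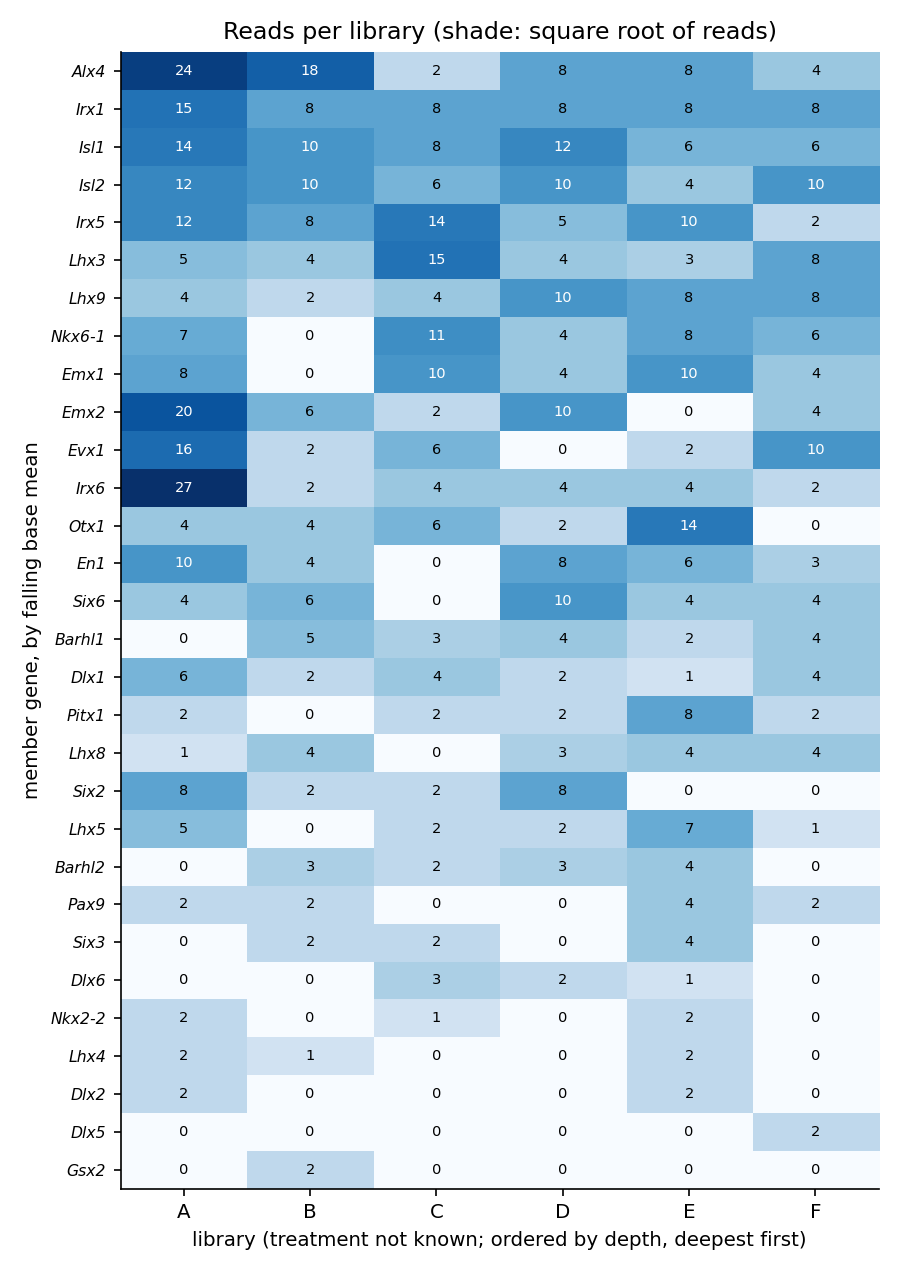
Whole reads recovered for the 30 members with a base mean above 0 and below 10 (rows) in the 6 libraries A to F (columns, deepest first, treatment not known), with darker shades for more reads. Most rows mix zeros and small numbers, and Irx6 and Alx4 have 27 and 24 reads in library A.

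Other developmental regulators lay in the same range. The median base mean was 7.95 for the 39 Hox genes, 6.60 for 23 further genes of the member families and 3.20 for 29 tissue-specific basic helix-loop-helix (bHLH) factors. Base means below 10 were found for 56.1% of the members, 61.5% of the Hox genes, 56.5% of the further family genes, 65.5% of the bHLH factors and 25.0% of all genes. Per kb of span the medians were 0.895 for the members, 1.68 for the Hox genes, 1.94 for the further family genes and 0.996 for the bHLH factors. The Hox genes had no gene at or above a base mean of 100, with Hoxb9 the highest at 69.5. At or above 100 were 7 of the 57 members, 4 of the 29 bHLH factors and 1 of the 23 further family genes. Among the further family genes, Otx2, which is expressed in ES cells leaving the naive state, was the highest at 181. Of the bHLH factors, Olig1, at 226, and Olig2, at 148, were the highest. Evx2 lies 6704 bases from Hoxd13, which had a base mean of 6.26.

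**Figure D3:**
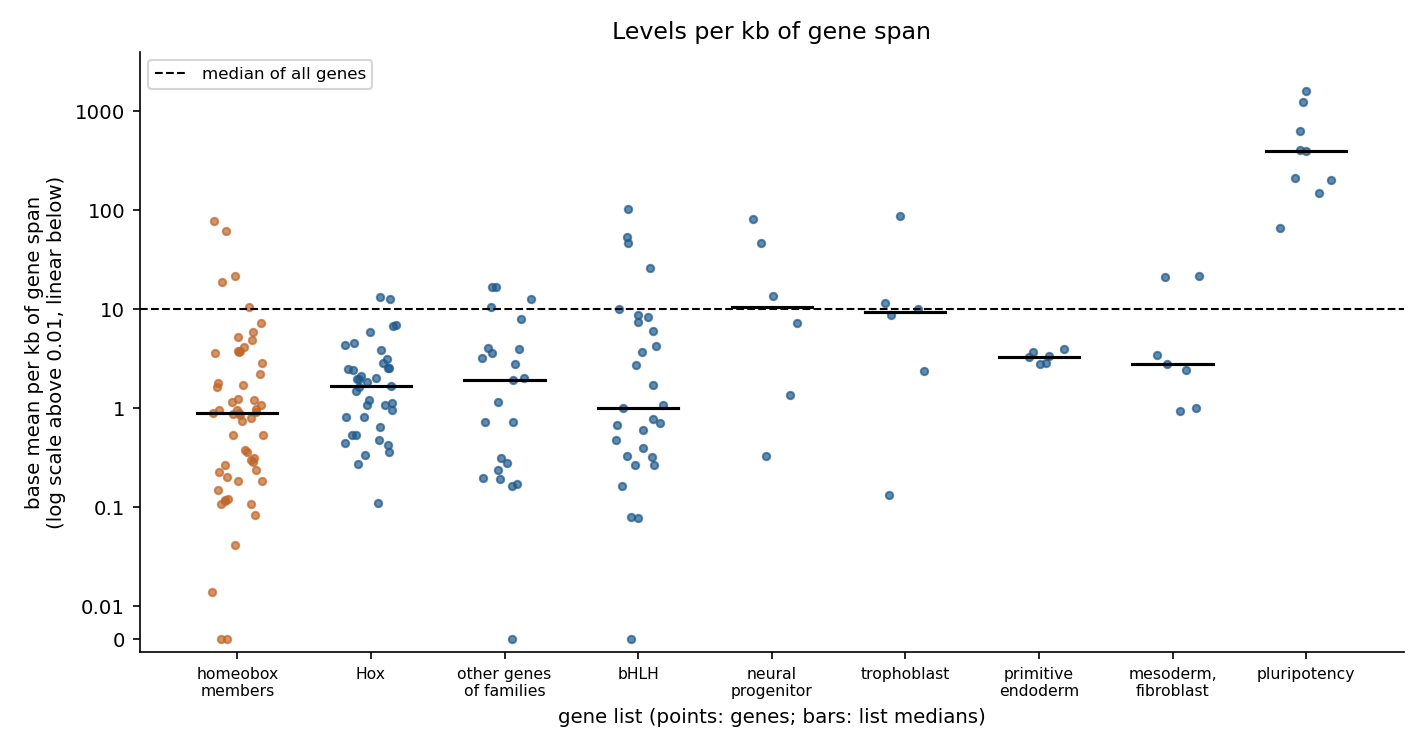
Base mean per kb of gene span (log axis, linear below 0.01) for the 57 members and 8 other gene lists, 1 point per gene, with bars at the list medians and the median of all genes dashed at 10.1. The members reach from 0 to 77.9 per kb with a median of 0.895, and all pluripotency markers lie above the dashed line.

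The nearest genes ranged from 0 to levels far above those of the members. For 49 members the nearest gene of the table lay within 100 kb, and for 25 of them it had a higher level per kb of span than the member. Of these nearest genes, 18 had a base mean of at least 100. Tlx3, at 3.66 per kb, lies 8205 bases from Ranbp17, at 90.8 per kb. Lhx4, at 0.0138 per kb, lies 10556 bases from Acbd6, at 22.9, and Gsx2, at 0.108, lies 30959 bases from Chic2, at 33.3. The reverse was found at Gbx2, which, at 77.9 per kb, lies 21414 bases from Asb18, at 0.284. Overlapping genes limit these values. In the GENCODE annotation 27 members overlap a gene on the other strand and 7 a gene on the same strand, and the sources used here do not say whether counting used strand. By RefSeq spans, 15 members overlap their nearest gene, and reads in the shared bases may not have been told apart. Six4, the highest member in base mean, shares 1847 bases with Mnat1, whose base mean was 4063, and Pax6 shares 1091 bases with Elp4, at 5177. Neither of these overlaps is present in the GENCODE annotation. There, Meis1 overlaps 3 genes on the same strand and 2 on the other, and Meis2 overlaps 1 on each strand. Nkx6-2 shares 277 bases with Inpp5a, at 3080, and Pax9 shares 191 bases with Slc25a21, at 209. Pax6, Six3, Dlx1, Dlx6, Nkx2-2, Evx1, Irx3 and Dlx4 overlap an antisense partner named after them in GENCODE. By RefSeq spans, Msx1 shares 2188 bases with Msx1os, and Emx2 lies 54 bases from Emx2os.

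**Figure D4:**
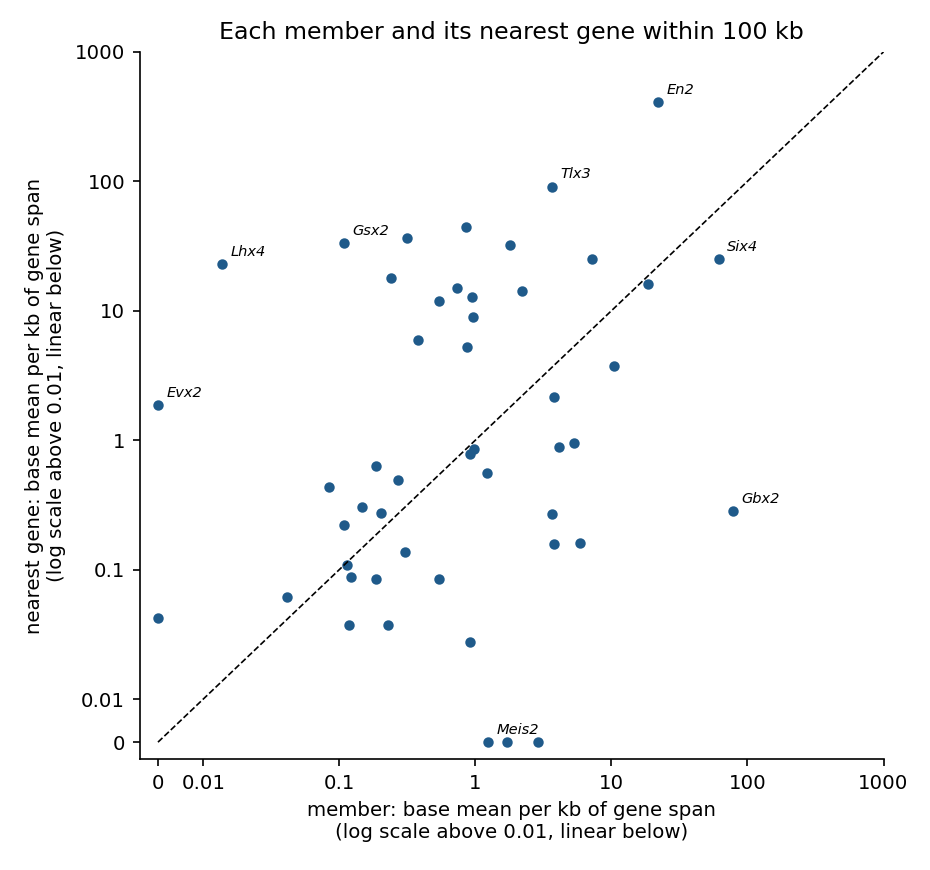
Base mean per kb of gene span of 49 members (horizontal axis) and of the nearest gene within 100 kb (vertical axis), both on log axes that are linear below 0.01, with the line of equal levels dashed. Points lie on both sides of the line, 25 of 49 above it. Tlx3, Lhx4 and Gsx2 are far above and Gbx2 is far below.

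CpG-rich promoter windows made up a larger share of the members than of all genes. RefSeq windows of 300 bases, from 250 before to 50 after the start, were matched for 44 members and for 15271 genes in all. A window was counted as CpG-rich where observed over expected CpG was at least 0.6 and GC content at least 50%. This held for 30 of 44 members (68.2%) and for 52.4% of all genes. It also held for 61.5% of the further family genes, 47.6% of the bHLH factors and 40.9% of the Hox genes. The median observed over expected CpG was 0.748 for the members and 0.657 for all genes, and the median GC content 61.3% and 58.3%. The highest ratios were found for Nkx6-1, at 1.18, Six2, at 1.13, and Evx2, at 1.13, all with base means below 10. Evx2 fell short of the limit by its GC content of 44.3%. Pax8, Lhx9 and Lhx8 had the lowest ratios, from 0.241 to 0.288. Of the 44 windows, 27 lay within 50 bases of the annotated start of the kept transcript, and the largest distance was 5135 bases, for Lhx9.

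Over the whole table few genes with a CpG-rich window had low levels, whereas many of the members with such a window did. Over all genes with a CpG-rich window, 320 of 8005 (4.00%) had a base mean below 10, and the median base mean was 783. Of the members with a CpG-rich window, 15 of 30 (50.0%) were below 10, with a median of 9.69. Per kb of gene span, the medians with a CpG-rich window were 31.7 over all genes and 0.935 for the members. Of the genes with other windows, 47.2% were below 10 overall and 8 of 14 (57.1%) among the members. The Hox genes, with 6 of 9, and the bHLH factors, with 6 of 10, were likewise often low in spite of a CpG-rich window. These are counts over genes, which are not replicates, and no test was made.

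**Figure D5:**
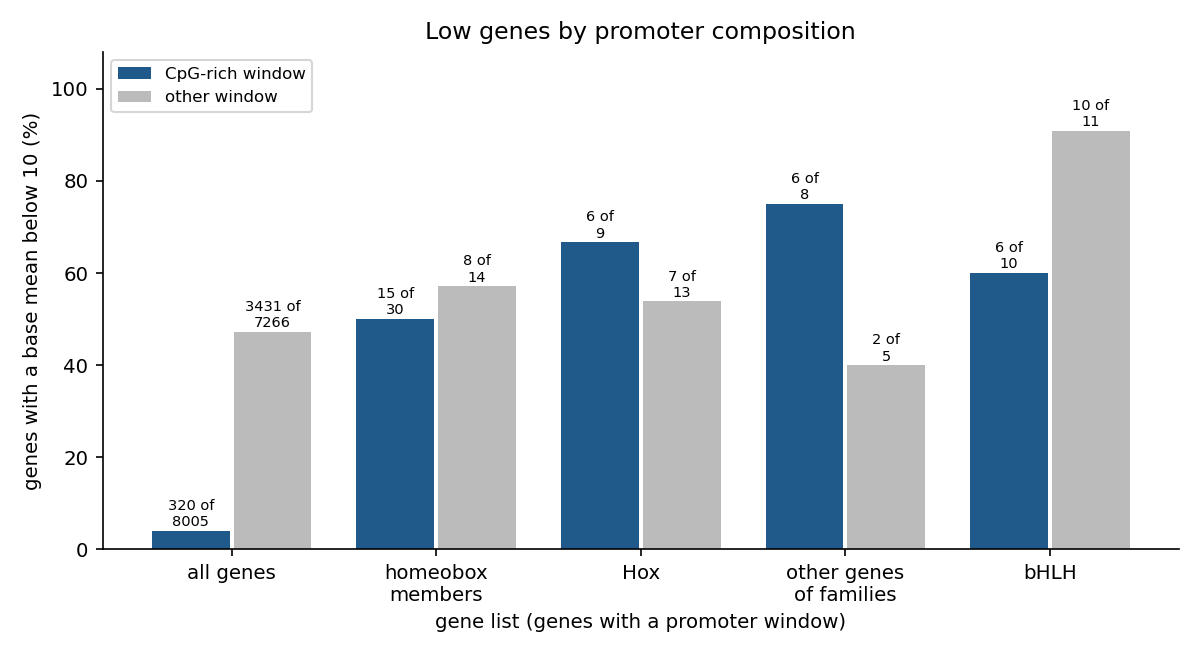
Share of genes with a base mean below 10 (vertical axis, %) among genes with a CpG-rich promoter window (dark bars) and with another window (grey bars), for all genes with a window, the homeobox members, Hox genes, further genes of the member families and bHLH factors. The dark bar is 4.00% for all genes and 50.0% for the members.

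Short motifs were searched on both strands of the same windows. CCAAT was found in 21 of 44 members (47.7%) and in 37.6% of all windows. TCCCGC was found in 12 members (27.3%) and 29.4% of all windows, TATAAA in 4 (9.09%) and 10.3%, and CACGTG in 6 (13.6%) and 8.80%. TAATTA, the core recognised by many homeodomains, was found in 3 members (6.82%), Msx2, Emx2 and Barhl1, and in 3.80% of all windows. CACGTG occurred in the windows of Gbx2, En1, Barhl2, Nkx2-2, Dlx2 and Gsx2, and it can be read in the Gbx2 sequence above. None of these motifs contains another, and a match describes the sequence only.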

How the data were processed

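Nuclear RNA of RYBPfl/fl;YAF2-/- mouse ES cells was measured in 3 UNT and 3 OHT libraries. The authors removed rRNA reads with bowtie2, mapped the remaining reads to mm10 with STAR, tried bowtie2 for what STAR had left, and counted reads per RefSeq gene with a custom script. The deposited base mean is a signal, the authors' mean of DESeq2-normalized counts over all 6 libraries. The deposited table also holds the log2 fold change of the authors' comparison of OHT with UNT, its standard error, the statistic, and raw and adjusted p-values. These were not used, so the groups were not compared, although a count test had been planned for the case of counts per library.

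Of all entries, 20560 were named through RefSeq or GENCODE vM21, and the entry with the highest base mean was kept per gene. Spans come from RefSeq and exon lengths from GENCODE. Whole reads per library were solved from base means below 10, to a tolerance of 8e-10. Of 3565 such entries, 3561 had a single solution, and 79.3% of library counts above 0 were even. Whether the mates of a pair were counted separately is not given in the sources used here. Relative depths were 1.48, 1.35, 0.984, 0.931, 0.850 and 0.664 in libraries A to F, and total depth is unknown. On simulated reads, 3249 of 3254 entries had a single solution, and 100% of these were right.

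Named are all members, the targeted genes, the listed genes and the nearest gene within 100 kb. The members and lists were chosen with earlier results of these data known. Promoters were to be printed for the 3 highest and the 3 lowest members per kb and for paralogues within 100 kb, without bases in annotated UTRs, stretches under 100 bases and members with no window (among them En2, Dlx3, Dlx4, Dlx5 and Dlx6). A planned description of proteins was not made, and some listed genes are not reported here. The alternatives were other entries per gene, exon length or none, other reference medians, other minimums and a stricter CpG limit. Python 3.11.15, numpy 2.4.6, pandas 2.3.3 and scipy 1.17.1 were used.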

Additional observations from a re-analysis of the deposited data

How the results depend on the processing

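No paired analysis was possible because the values used hold no measurement per labelled library, and for the same reason the planned fits without a replicate, with DESeq2 or with another normalization were not run. The number of members at or above a base mean of 100 was 7, and with a minimum of 10 it was 25, since more genes pass a lower minimum. Minimums of 50 and 200 gave 10 and 5. The number of members below the median of all entries was 53 and ranged from 52 to 55 under the 4 alternatives for the entry kept and the reference median. Below the median per kb there were 52 members by gene span, 54 by exon length and 53 with no length correction. A CpG-rich window was found for 30 members, and for 19 with the stricter limits of 0.75 and 55%, with fewer windows passing by construction. By the stricter limits the shares were 43.2% of the members with a window and 35.0% of all genes with a window. For a gene with no read, counting error alone allows a base mean of up to about 0.480. If mates of a pair were counted separately, this limit is 0.959. Levels below these limits rest on few reads, such as the 2 reads of Gsx2 at 0.247. A value just above 0.480 can still rest on 2 reads, as for Dlx5 at 0.502. Above 10, the spread between libraries is unknown.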

Other observations

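Further genes of the same families also differed in level. Otx2 had a base mean of 181, and Gbx1, the paralogue of Gbx2, 72.6. Per kb of span these were 16.6 for Otx2 and 3.24 for Gbx1. Pax4, of pancreatic endocrine cells, was at 0, and Lhx1 and Pax1 were at 1.78 and 2.60.

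Over all entries with recovered reads, the 6 unlabelled libraries differed in how much low signal they held. Summed normalized reads over these entries were 12385, 9512, 8834, 9355, 12463 and 11164 in libraries A to F. Over the members, the corresponding sum was lowest in library B, while over all such entries it was lowest in library C. What sets these differences was not tested.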
